A study of Mus musculus with 2 samples.

Results

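The levels of 10 genes of the Notch pathway were followed across the cell classes of the mouse yolk sac at embryonic day 8.75. They are the receptors Notch1, Notch2, Notch3 and Notch4, the ligands Dll4, Jag1 and Jag2, and the transcriptional repressors Hes1, Hey1 and Hey2, which are known Notch targets. The genes were chosen by name, with earlier results of these data known, and all 10 were found among the 30970 gene rows of the count matrices. Notch1, Notch4, Dll4 and Hey1 were highest in endothelial cells, Notch2 and Notch3 were highest in mesoderm, and Hes1 was found in all 4 classes, most in endothelium and mesoderm.

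Yolk sacs were dissected, dissociated to single cells, tagged with CellPlex oligonucleotides, pooled and sequenced on the 10x platform, and each tagged sample is a separate count matrix. The 3 tagged samples (labelled Ctrl1, Ctrl2 and Ctrl3, here tagged samples 1, 2 and 3) all carried Ttr-Cre/+ and R26lsl-rtTA-EGFP/+, so that no genotype or treatment is compared. In this genotype the Ttr promoter, active in visceral endoderm, drives Cre, and Cre switches on rtTA and EGFP from the Rosa26 locus; every cell compared here comes from such animals. The design text of the study contrasts ciliated cell types with the unciliated visceral endoderm lineage, and it gives 3 embryos. Each tagged sample held cells with Xist (190, 263 and 221 cells) and cells with Y-linked transcripts (151, 180 and 350 cells), so the number of embryos behind a tagged sample is not settled. The replicates are therefore tagged samples, and p-values measure the spread between them.

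Notch receptors are single-pass membrane proteins that are activated by Delta-like or Jagged ligands on a neighbouring cell. Ligand binding exposes the receptor to cleavage by ADAM proteases and then by the gamma-secretase complex, and the freed intracellular domain joins the DNA-binding protein RBPJ and Mastermind-like coactivators to switch on targets such as the Hes and Hey genes. In blood vessels, Notch1, Notch4, Dll4, Jag1, Hey1 and Hey2 are known for arterial specification and for the choice between tip and stalk cells in sprouting. In the yolk sac, the pathway is known for its part in remodelling the first capillary plexus.

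In GENCODE M21 (GRCm38), Notch1 lies on the minus strand of chromosome 2 (chr2:26457903-26516663), and Dll4 lies on the plus strand of the same chromosome (chr2:119325784-119335962). Notch4 lies on the plus strand of chromosome 17 (chr17:34564268-34588503), and Hey2 on the minus strand of chromosome 10 (chr10:30832359-30842801). RefSeq promoter sequence on GRCm38.p6 was matched for 8 of the 10 genes by symbol. Hes1 and Hey1 had no entry and were not searched, so nothing is known here of motifs in these Notch targets. The stretches just before the RefSeq start site are shown for 3 genes that were high in endothelium and for Hey2, whose endothelial and mesodermal samples overlapped, because this contrast recurs in the values below. For Notch1 the RefSeq start (chr2:26503822) lies inside the GENCODE span given above, so its stretch does too. The RBPJ core motif TGGGAA was searched on both strands in the 250 bases before the start site, where it was found in 21.6% of 32851 RefSeq promoters. Among the 8 genes it was found in 1, Hey2, on the minus strand at 207 to 202 bases before the start. The core of ETS factor sites, AGGAAG, was searched in the same way and found in 29.5% of the promoters. Among the 8 genes it was found in Notch4 only, with 1 match on the plus strand and 2 on the minus strand. No match of one motif overlapped a match of the other. Capitals mark the matches. For the 8 genes, sequence that GENCODE annotates as exon was left out before the search, which left from 126 bases (Jag1) to 250. The shares over all promoters used the 250 bases without this cut, so the 2 searches differ in length.
Dll4 (chr2:119325534-119325783, plus strand): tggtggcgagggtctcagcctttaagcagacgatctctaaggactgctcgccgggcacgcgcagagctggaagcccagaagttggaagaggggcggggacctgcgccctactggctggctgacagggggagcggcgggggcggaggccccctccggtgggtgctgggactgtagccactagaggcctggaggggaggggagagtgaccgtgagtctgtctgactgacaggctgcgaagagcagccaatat
Notch1 (chr2:26503825-26504072, minus strand): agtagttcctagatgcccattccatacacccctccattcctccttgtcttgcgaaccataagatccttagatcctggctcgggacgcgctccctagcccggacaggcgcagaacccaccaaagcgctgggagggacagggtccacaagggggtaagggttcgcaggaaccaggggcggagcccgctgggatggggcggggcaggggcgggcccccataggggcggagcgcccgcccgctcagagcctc
Notch4 (chr17:34564045-34564267, plus strand): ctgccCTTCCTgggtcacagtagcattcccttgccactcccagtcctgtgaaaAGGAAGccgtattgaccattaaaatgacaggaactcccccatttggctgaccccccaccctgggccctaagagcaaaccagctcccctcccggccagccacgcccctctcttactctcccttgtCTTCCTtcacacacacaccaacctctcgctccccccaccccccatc
Hey2 (chr10:30842802-30843033, minus strand): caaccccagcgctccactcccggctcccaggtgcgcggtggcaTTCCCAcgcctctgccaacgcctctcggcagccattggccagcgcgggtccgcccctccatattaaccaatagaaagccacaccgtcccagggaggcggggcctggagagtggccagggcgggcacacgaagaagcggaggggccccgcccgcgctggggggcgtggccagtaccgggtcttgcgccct

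The deposited matrices held 460, 651 and 706 cells and 22007477, 32890946 and 33114758 unique molecular identifiers (UMIs) of genes, and 443, 614 and 683 cells passed filters of 500 or more genes and no more than 10% mitochondrial UMIs. Cells were put in classes by the share of their UMIs from a few genes. Cdh5, Ctla2a and Plvap marked endothelium (0.04% or more), Hand1, Vcan and Foxf1 mesoderm (0.03%), Ttr, Apob and Apom endoderm (0.3%), and 7 globins erythroid cells (3%). The classes held 115, 199, 559 and 629 cells, 50 cells that met 2 definitions were left out, and 188 cells met none. Of marker genes that the definitions did not use, 9 of 9 for endothelium, 9 of 9 for endoderm, 7 of 7 for erythroid cells and 8 of 9 for mesoderm were highest in their own class. The exception was Pdgfra, which was highest in endoderm. All 9 endoderm markers were also seen in endothelium, where they summed to 1436 to 1846 UMIs per 1000000 (CPM, the unit of level used below), against 24159 to 30232 in endoderm. All 9 were likewise seen in mesoderm (644 to 839 CPM) and in erythroid cells (470 to 515 CPM). In endothelium cells brought to an equal depth, as described below, Apoe made up most of this sum. The counts summed to 4294641 UMIs in endothelium, 7128089 in mesoderm, 32540566 in endoderm and 31813300 in erythroid cells, so that a single UMI weighed most in endothelium. A limit of 3 counts over a class corresponds to 0.699 CPM in endothelium and 0.421 in mesoderm.

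Notch1 separated endothelium from all other classes. Its level in endothelium was 81.9, 88.2 and 77.6 CPM in tagged samples 1, 2 and 3 (355 UMIs in all). In mesoderm it was 3.64, 2.72 and 3.39 CPM, and in endoderm and erythroid cells no sample exceeded 0.840. The lowest endothelial sample thus lay far above the highest of any other class, and mesoderm lay above the remaining classes without overlap. The log2 difference of endothelium from mesoderm was 4.77 (SE 0.20, edgeR adjusted p = 4.12e-09). The log2 difference from endoderm was 6.83 (SE 0.20, adjusted p = 2.37e-11), and that from erythroid cells 6.81 (SE 0.22, adjusted p = 1.55e-10). Notch1 was also higher in mesoderm than in endoderm, by 2.06 on the log2 scale (SE 0.39, adjusted p = 0.000729), at 23 and 21 UMIs. Exons of Notch1 overlap those of 0610009E02Rik and Gm13568 on the opposite strand, and whether the counting used strand was not stated.

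Notch4, a receptor known mainly from endothelium, followed the pattern of Notch1. It stood at 5.94, 11.0 and 11.2 CPM in endothelium (39 UMIs). A single UMI was found in mesoderm, 4 in endoderm and 5 in erythroid cells, and no sample of these classes exceeded 0.455 CPM. All endothelial samples lay above all others, with tagged sample 1 the lowest of them. The pooled level was 64.7 times that in mesoderm, where the exact interval of the ratio, for counting error only, is 10.95 to 2621 because of the single UMI (edgeR adjusted p = 4.9e-05). The log2 difference from endoderm was 5.87 (SE 0.62, adjusted p = 3.05e-06), and that from erythroid cells 5.37 (SE 0.53, adjusted p = 2.01e-06).

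Notch2 ran the other way. It stood at 14.1, 23.0 and 26.3 CPM in mesoderm (152 UMIs), at 11.9, 9.50 and 10.9 in endoderm (343 UMIs), and at 6.53, 0 and 3.20 in endothelium (15 UMIs). The order of mesoderm over endoderm over endothelium held without overlap of the samples, while endothelium and erythroid cells (2.55, 1.96 and 2.56) overlapped. Notch2 was lower in endothelium than in mesoderm by a log2 difference of -2.47 (SE 0.51, edgeR adjusted p = 0.00213), and lower than in endoderm by -1.74 (SE 0.46, adjusted p = 0.00517). Mesoderm exceeded endoderm by 0.75 on the log2 scale (SE 0.20, adjusted p = 0.00665). This last call was lost without tagged sample 2 (log2 difference 0.61, adjusted p = 0.0931) and without tagged sample 3 (0.59, adjusted p = 0.0783). Exons of Notch2 overlap those of Gm42820 on the same strand.

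Notch3, the receptor of mural cells around vessels, was seen mostly in mesoderm. Its levels there were 6.37, 1.95 and 4.24 CPM (29 UMIs), against 3 UMIs in endothelium, 9 in endoderm and 5 in erythroid cells. The mesodermal samples lay above those of the other classes, the nearest being 1.19 in endothelium. Mesoderm exceeded endoderm by 3.54 on the log2 scale (SE 0.62, edgeR adjusted p = 0.000384). Notch3 did not pass the low-count filter against endothelium, where the pooled level in mesoderm was 5.82 times higher (exact interval 1.81 to 29.9, counting error only). Its exons overlap those of Gm17276 on the opposite strand.

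**Figure D1:**
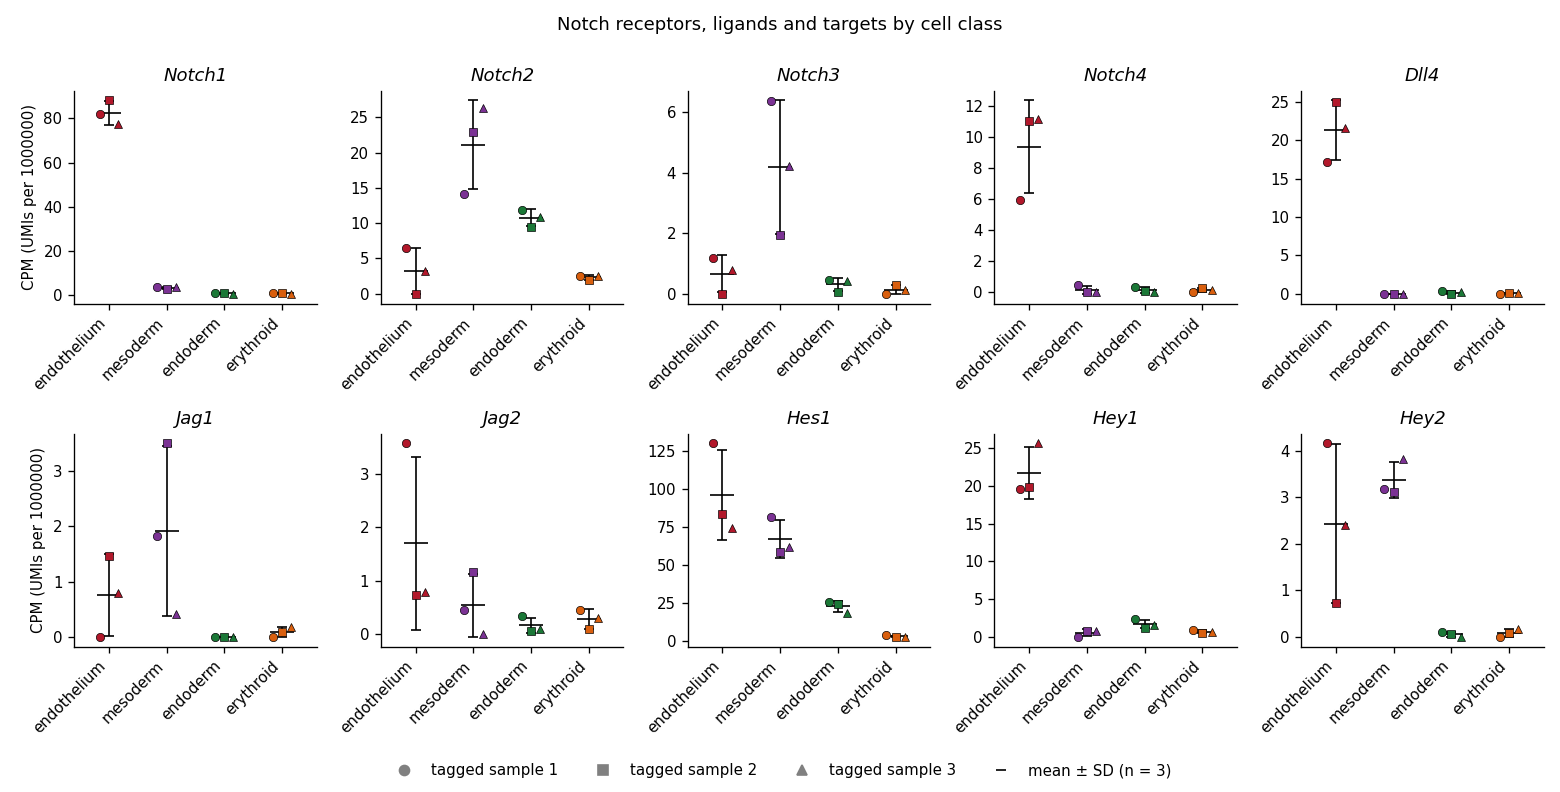
CPM (y axis, linear, with its own scale in each panel) of the 10 genes in the 4 cell classes (x axis). Points are the 3 tagged samples, and bars the mean and SD. Notch1, Notch4, Dll4 and Hey1 stood apart in endothelium, with every endothelial sample above every sample of the other classes, while Notch2 and Notch3 were highest in mesoderm.

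Of the ligands, Dll4 was an endothelial transcript. It stood at 17.2, 25.0 and 21.6 CPM in endothelium (90 UMIs). No UMI was found in 199 mesoderm cells, 5 were found in endoderm and 4 in erythroid cells. All endothelial samples lay far above those of the other classes, none of which exceeded 0.336 CPM. Against a limit of 3 counts over the mesoderm class, the endothelial level was at least 49.8-fold higher (edgeR adjusted p = 2.25e-06). The log2 difference from endoderm was 6.78 (SE 0.48, adjusted p = 6.11e-08), and that from erythroid cells 6.86 (SE 0.40, adjusted p = 1.6e-08). Exons of Dll4 overlap those of Gm14207 on the opposite strand.

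Jag1 and Jag2, ligands of the Jagged family, were near the limit of detection in all 4 classes and passed the low-count filter in none of the comparisons. Jag1 was seen as 14 UMIs in mesoderm, at 1.82, 3.50 and 0.424 CPM. It had 3 UMIs in endothelium, 4 in erythroid cells and 0 in endoderm. Mesoderm and endothelium overlapped, and the mesodermal level was at least 21.3-fold higher than a limit of 3 counts over endoderm. That level was carried by few cells: 12 of the 14 UMIs lay in 4 of 18 mesoderm cells with contractile genes, and the other 181 held 2 UMIs (0.309 CPM), under their own limit of 0.464. Jag2 had 8 UMIs in endothelium, of which 6 came from tagged sample 1, and 4, 5 and 8 UMIs in mesoderm, endoderm and erythroid cells. Its samples stood at 3.56, 0.735 and 0.80 CPM in endothelium, above every sample of endoderm (at most 0.336) and of erythroid cells (at most 0.463). The ratio of endothelium was 12.1 to endoderm (exact interval 3.50 to 47.1) and 7.41 to erythroid cells (2.42 to 22.6), for counting error only, and rests largely on tagged sample 1. Mesoderm, at 0.455, 1.17 and 0 CPM, overlapped with each of the other classes.

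Hes1, a repressor that answers to Notch and to other signals, was found in every sample of all 4 classes. It stood at 130.0, 83.8 and 74.4 CPM in endothelium (426 UMIs) and at 81.4, 58.4 and 61.9 in mesoderm (475 UMIs). Endoderm held 25.6, 24.4 and 18.5, and erythroid cells 3.71, 2.80 and 3.04 CPM. Endothelium and mesoderm overlapped, although endothelium was the higher within each tagged sample, and both lay above endoderm, which lay above erythroid cells. In endothelium, mesoderm, endoderm and erythroid cells alike, tagged sample 1 was the highest. The log2 difference of endothelium from mesoderm was 0.66 (SE 0.20, edgeR adjusted p = 0.0224). That call was lost without tagged sample 2 (0.66, adjusted p = 0.0858), without tagged sample 3 (0.73, adjusted p = 0.0584) and with scaling by library size alone (0.53, adjusted p = 0.0552). Hes1 was higher in endothelium than in endoderm by 1.96 (SE 0.20, adjusted p = 1.79e-06) and than in erythroid cells by 4.67 (SE 0.23, adjusted p = 3.81e-09). Mesoderm exceeded endoderm by 1.31 (SE 0.16, adjusted p = 2.83e-05).

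Hey1, a repressor known from arterial endothelium, separated endothelium as Notch1 and Dll4 did. Its endothelial levels were 19.6, 19.9 and 25.6 CPM (92 UMIs). Mesoderm held 4 UMIs, endoderm 53 (2.35, 1.25 and 1.53 CPM) and erythroid cells 20. All endothelial samples lay above all others, and endoderm lay above erythroid cells without overlap. The log2 difference of endothelium was 5.23 from mesoderm (SE 0.46, edgeR adjusted p = 1.78e-06), 3.56 from endoderm (SE 0.28, adjusted p = 2.07e-07) and 4.73 from erythroid cells (SE 0.29, adjusted p = 2.48e-08).

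Hey2, the closest relative of Hey1 and a gene also known from arteries and heart, did not separate endothelium from mesoderm. It stood at 3.18, 3.11 and 3.82 CPM in mesoderm (24 UMIs) and at 4.16, 0.735 and 2.40 in endothelium (11 UMIs). These samples overlapped, with a ratio of endothelium to mesoderm of 0.761 (exact interval 0.336 to 1.61, counting error only). Endoderm held 2 UMIs (at most 0.112 CPM in a sample) and erythroid cells 4 (at most 0.179), and all endothelial samples lay above these. The ratio of endothelium was 41.7 to endoderm (exact interval 9.10 to 387) and 20.4 to erythroid cells (6.04 to 87.7), for counting error only. Neither difference passed the low-count filter. The level in mesoderm was 54.8 times that in endoderm (exact interval 13.6 to 478, edgeR adjusted p = 1.4e-05).

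**Figure D2:**
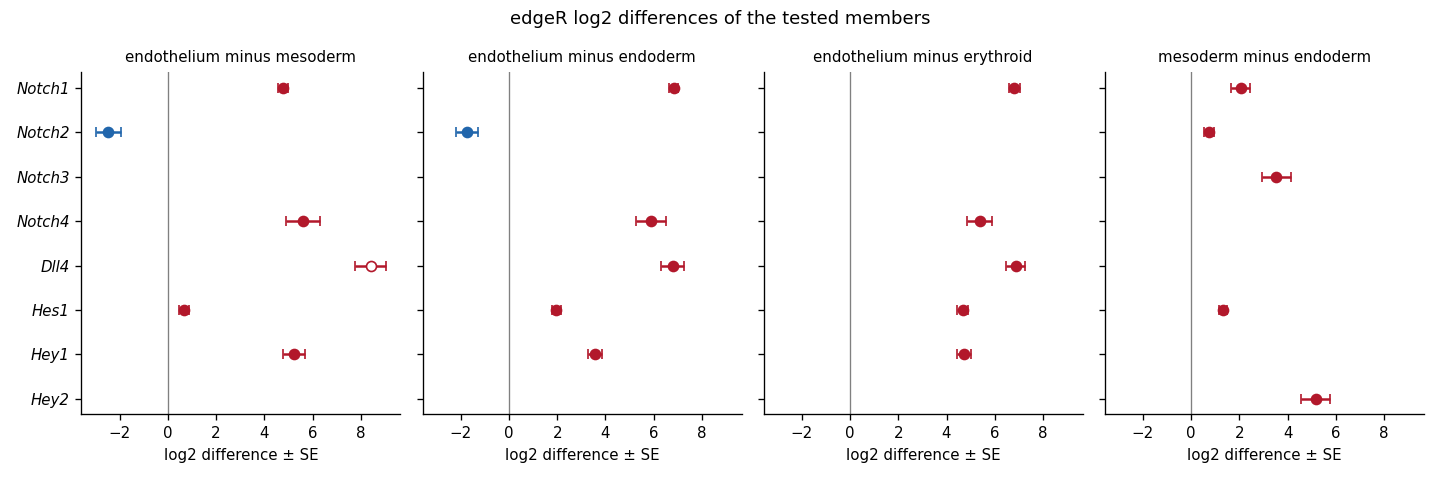
Log2 difference with its SE (x axis) of each gene that passed the low-count filter (y axis), for the 4 comparisons named above the panels, from edgeR. Red points are higher and blue points lower in the class named first, and the open point (Dll4) is a fitted value against a class with no UMI, which is no bound. Notch2 was the only tested gene of the 10 below 0, at -2.47 and -1.74.

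Of the 10 genes, 6 passed the low-count filter in the comparison of endothelium with mesoderm, and all 6 were called, 5 higher and 1 lower. Of all genes tested in that comparison 35.4% were called, 19.5% higher and 15.9% lower. Against endoderm 6 passed and 6 were called (5 higher, 1 lower), beside 60.5% of all genes tested (28.6% higher, 31.9% lower). Against erythroid cells 5 passed and 5 were called higher, beside 66.0% of all genes (34.2% higher, 31.9% lower). In mesoderm against endoderm 5 passed and 5 were called higher, beside 63.8% of all genes (30.6% higher, 33.2% lower). A gene at a low level passed the filter only through the class where it was high, so these counts say little beside the values of each gene. The comparisons share the endothelium sums or the endoderm and mesoderm sums and are not independent.

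The share of cells with a UMI showed how the levels were spread over cells. Each cell was thinned to 20000 UMIs, which left out 31 of 115 endothelium cells, 25 of 199 mesoderm cells, 48 of 559 endoderm cells and 13 of 629 erythroid cells. Notch1 was then seen in 73.8% of 84 endothelium cells (95% exact binomial interval 63.1 to 82.8), against 5.17% in mesoderm, 1.17% in endoderm and 1.62% in erythroid cells, whose share serves as the background. Before thinning, the Notch1 share was 79.1% in endothelium, at a median of 35699 UMIs per cell, and 2.23% in erythroid cells, at 47771. Notch1 was thus seen in most endothelial cells, with up to 14 UMIs in a cell.

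Dll4 was seen in 26.2% of the thinned endothelium cells (17.2 to 36.9) and in 38.3% before thinning. The thinned share was 0.162% in erythroid cells, and 0 of 174 mesoderm cells had a UMI. A limit of 3 cells corresponds to a share of 1.72% there, and the exact interval reaches 2.10%. Hey1 was seen in 29.8% (20.3 to 40.7; 33.9% before thinning), and in 4.11% of endoderm cells. Notch4 was seen in 15.5% of endothelium cells (8.51 to 25.0; 23.5% before thinning). Of the 84 endothelium cells, 18 had no UMI of Notch1, Notch4, Dll4 or Hey1, 24 had 1 of the 4, 30 had 2, 10 had 3 and 2 had all 4. Hes1 was seen in 82.1% of endothelium, 62.1% of mesoderm, 32.5% of endoderm and 6.49% of erythroid cells. Notch2 was seen in 28.7% of mesoderm and 20.2% of endoderm cells, against 7.14% in endothelium and 5.68% in erythroid cells. These intervals cover counting error only, and cells of a tagged sample are not replicates.

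**Figure D3:**
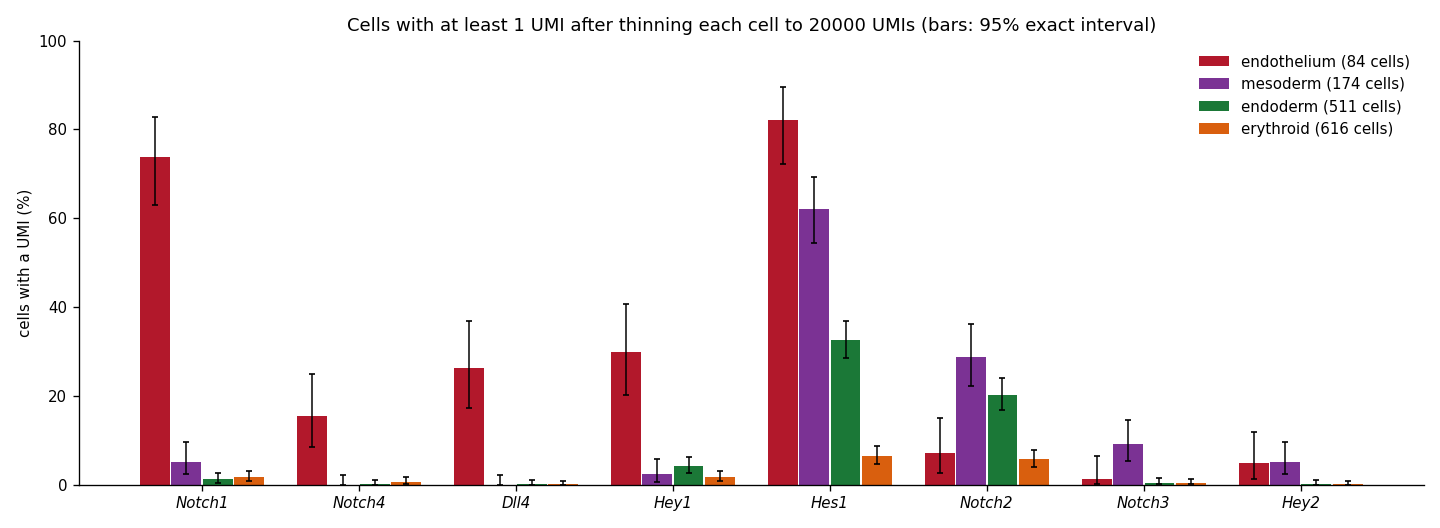
Share of cells with at least 1 UMI (y axis, percent) for 8 of the genes (x axis) in 4 cell classes (colours), after each cell was thinned to 20000 UMIs. Black bars are 95% exact binomial intervals. Notch1 reached 73.8% and Hes1 82.1% in endothelium, while Dll4 and Hey1 were seen in 26.2% and 29.8% of the same cells.

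Other genes of the pathway were read from a list of 51. In endothelium against mesoderm, 33 were tested, 7 were called higher and 6 lower (19.5% and 15.9% over all genes), with a median log2 difference of -0.0047 beside -0.010 over all genes. Against endoderm, 38 were tested, with 15 higher, 11 lower and a median of 0.14 (all genes 28.6%, 31.9% and -0.047). Against erythroid cells, 34 were tested, with 17 higher, 6 lower and a median of 0.43 (all genes 34.2%, 31.9% and -0.034). In mesoderm against endoderm, 36 were tested, with 13 higher, 10 lower and a median of 0.20 (all genes 30.6%, 33.2% and -0.025). Genes of the list were called in both directions in each comparison.

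The sharpest endothelial genes of the list were a fringe enzyme and a feedback regulator. Mfng (Manic fringe), a glycosyltransferase that extends sugars on Notch, stood at 14.8, 27.9 and 33.6 CPM in endothelium (105 UMIs), with 0 UMIs in mesoderm, 5 in endoderm and 4 in erythroid cells. Its endothelial level was at least 58.1-fold higher than a limit of 3 counts over mesoderm (edgeR adjusted p = 8.07e-06). Of its relatives, Lfng had 5 UMIs in endothelium and 1 in all other classes together, and Rfng was present in all classes, at means of 3.99 in endothelium, 6.74 in mesoderm, 6.17 in endoderm and 9.21 in erythroid cells. Nrarp, a Notch target that limits Notch signalling, stood at 19.0, 27.9 and 21.6 CPM in endothelium. No sample of another class exceeded 2.27, and the log2 difference from mesoderm was 4.21 (SE 0.39, adjusted p = 2.76e-06). Heyl, the third Hey gene, had no UMI in endothelium, mesoderm or erythroid cells and 1 in endoderm.

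The remaining ligands fell elsewhere or were scarce. Dlk1, a non-canonical ligand that lacks the domain for receptor activation, stood at 279.7, 443.5 and 432.9 CPM in mesoderm and at 115.4, 232.1 and 195.6 in endoderm. In endothelium it stood at 14.2, 11.0 and 21.6, with a log2 difference from mesoderm of -4.52 (SE 0.23, edgeR adjusted p = 1.93e-08) and from endoderm of -3.69 (SE 0.32, adjusted p = 4.9e-07). Dll1 had 5 UMIs in endothelium and Dll3 had 9 in mesoderm. Dner and Dlk2 had at most 2 UMIs in a class.

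The DNA-binding partner of Notch was found in every class. Rbpj, which carries the Notch intracellular domain to DNA, had means of 34.7 ± 4.53 CPM in endothelium, 49.9 ± 3.38 in mesoderm, 31.4 ± 1.28 in endoderm and 30.8 ± 2.21 in erythroid cells (SD, n = 3). It was higher in mesoderm than in endoderm (log2 difference 0.42, SE 0.11, edgeR adjusted p = 0.00599), a call lost without tagged sample 3 (adjusted p = 0.056) and with the class thresholds doubled (adjusted p = 0.0678). Its difference between endothelium and mesoderm was -0.41 (SE 0.15, adjusted p = 0.0562), and 5 alternatives put this past the threshold. Of the coactivators, Maml2 was higher in endothelium than in mesoderm by 1.42 (SE 0.37, adjusted p = 0.00913) and than in endoderm by 5.21 (SE 0.52, adjusted p = 1.66e-06), at 30, 20 and 5 UMIs. Maml3 was higher in endothelium than in endoderm by 2.75 (SE 0.25, adjusted p = 8.37e-07), and in mesoderm than in endoderm by 2.64 (SE 0.22, adjusted p = 1.14e-06). The acetyltransferase Ep300 was lower in endothelium than in mesoderm by -0.64 (SE 0.18, adjusted p = 0.0155), a call lost without tagged sample 2 (adjusted p = 0.139), with thinned sums and with DESeq2.

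Parts of the receptor-processing machinery differed between the layers. Psen2 and Aph1a belong to gamma-secretase. Psen2 stood at 11.9, 16.2 and 15.2 CPM in endothelium and at 13.5, 21.2 and 22.9 in endoderm, against 5.46, 4.28 and 2.12 in mesoderm. It was higher in endothelium than in mesoderm by 1.96 (SE 0.35, edgeR adjusted p = 0.000718) and lower in mesoderm than in endoderm by -2.54 (SE 0.34, adjusted p = 4.84e-05). Aph1a was higher in endothelium than in mesoderm by 1.14 (SE 0.16, adjusted p = 8.48e-05), while Aph1c was lower in endothelium than in endoderm by -4.46 (SE 0.66, adjusted p = 6.2e-05), at 2 and 322 UMIs. Aph1b and Aph1c are near-identical copies between which reads could be split. Furin, which cleaves the receptor precursor, was lower in endothelium than in endoderm by -0.93 (SE 0.16, adjusted p = 0.000279). Numbl, of the Numb family of Notch inhibitors, was a mesodermal gene, at 20.9, 18.3 and 18.2 CPM, against a highest sample of 4.75 in endothelium and 0.693 in endoderm. Numb was higher in endothelium than in mesoderm by 0.86 (SE 0.19, adjusted p = 0.00371).

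**Figure D4:**
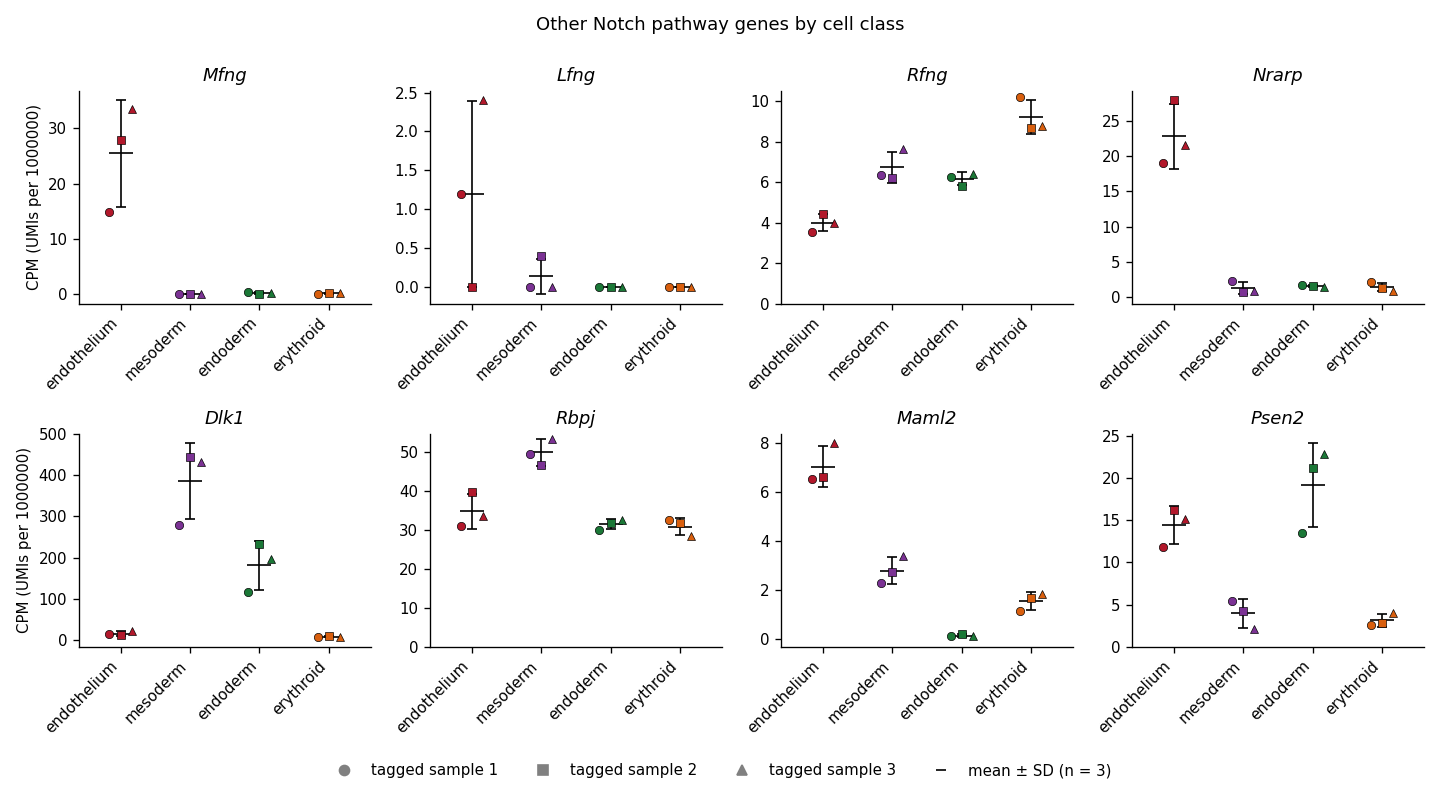
CPM (y axis, linear, with its own scale in each panel) of 8 other Notch pathway genes in the 4 cell classes (x axis), with points for the 3 tagged samples and bars for the mean and SD. Mfng and Nrarp stood apart in endothelium, Dlk1 was highest in mesoderm, and Rbpj was present in every class.

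Notch1, Dll4 and Hey1 are used as arterial genes, so lists of 14 arterial and 6 venous genes were read beside them. Of the arterial list, 10 were tested in endothelium against mesoderm, with 5 higher and 3 lower and a median log2 difference of 2.14, beside 19.5%, 15.9% and -0.010 over all genes. All 6 venous genes were tested, with 2 higher and 1 lower and a median of 0.58. Members of both lists were thus found in the endothelial class. The arterial connexin Gja4 stood at 30.3, 33.1 and 18.4 CPM in endothelium, and the log2 difference from mesoderm was 5.94 (SE 0.49, edgeR adjusted p = 1.02e-06), at 119 and 3 UMIs. Sox17, an arterial transcription factor that endoderm also expresses, stood at 52.8, 46.3 and 43.2 in endothelium and at 23.7, 19.4 and 19.1 in endoderm. The lymphatic and venous receptor Flt4 stood at 53.4, 54.4 and 47.2 in endothelium, with a log2 difference from mesoderm of 4.16 (SE 0.24, adjusted p = 4.67e-08). Nr2f2, a venous transcription factor that represses Notch genes, was lower in endothelium (10.7, 5.88 and 6.40) than in mesoderm (35.0, 41.2 and 51.3), by -2.30 (SE 0.26, adjusted p = 1.68e-05). The semaphorin and VEGF coreceptor Nrp1, counted as arterial, was lower in endothelium than in mesoderm by -1.34 (SE 0.17, adjusted p = 4.72e-05) and higher than in endoderm by 4.45 (SE 0.22, adjusted p = 2.31e-09). Against endoderm 9 of 10 tested arterial genes were higher and 1, the netrin receptor Unc5b, was lower, and of the 6 venous genes 4 were higher and 1 lower, beside 28.6% higher and 31.9% lower over all genes. The median log2 difference there was 3.01 for the arterial and 3.60 for the venous list.

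Within the endothelial class, thinned cells with a Dll4 UMI (5, 8 and 9 cells of tagged samples 1, 2 and 3) were set against those without (27, 15 and 20 cells). Dll4, which defined the split, was left out of the fit. With the sums at 100000 to 540000 UMIs, only Notch1 and Hes1 of the 10 genes passed the low-count filter, and neither was called. Notch1 stood at 170, 87.5 and 100 CPM in cells with Dll4 and at 72.2, 76.7 and 67.5 in cells without, and these did not overlap. The log2 difference was 0.63 (SE 0.28, edgeR adjusted p = 0.635). A Notch1 UMI was found in 21 of 22 cells with Dll4 and in 41 of 62 without. Hes1 differed by 0.40 (SE 0.28, adjusted p = 0.79), and its samples overlapped. Hey1, which was not tested, stood at 40.0, 37.5 and 72.2 CPM in cells with Dll4 and at 29.6, 13.3 and 22.5 without. Of the tested arterial genes, Nrp1 differed by 0.92 (SE 0.28, unadjusted p = 0.00369, adjusted p = 0.421).

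Of 3420 genes tested between these cells, edgeR called 0 (percent called 0) and DESeq2 called 0, while 259 had an unadjusted p under 0.05. Without tagged sample 1 edgeR called 2 genes, Cdkn1c and Tcf4, both higher in cells with Dll4 and named after their values were seen. In the cells with Dll4, 9 endothelial markers summed to 1830, 2000 and 2233 CPM, against 1550, 1530 and 1518 in cells without. Their part in the differences was not tested. A split by a single sparse transcript is a range of cells and not a type.

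The endothelial and mesodermal classes held smaller groups in which some of the 10 genes were uneven. In 15 endothelium cells, Itga2b, Pf4, Ptprc, Runx1 and Myb, genes of blood progenitors, made up at least 0.02% of UMIs. Of 5 blood markers that did not choose them, Spi1 stood at 44.2, 115.8 and 124.2 CPM in these cells, against 7.21, 6.84 and 9.62 in the other 100 endothelium cells. Coro1a (0, 36.9 and 25.5 against 6.55, 3.42 and 7.48) and Gfi1b (0, 15.8 and 25.5 against 0.655, 5.13 and 5.34) overlapped, and Gp9 and Ppbp, like Ptprc, were at 0 in both. Notch4 had 0 UMIs in the 15 cells and 39 in the other endothelium cells (6.55, 12.8 and 15.0 CPM). A limit of 3 counts over the 15 cells corresponds to 4.53 CPM, so the 0 does not show absence. Notch1 stood at 75.8, 68.4 and 41.4 in the 15 cells and at 82.5, 91.5 and 89.8 in the others, without overlap. Dll4 overlapped between them, at 12.6, 26.3 and 25.5 against 17.7, 24.8 and 20.3. The 9 endothelial markers were also lower in the 15 cells, at 783.5 to 1270 against 1695 to 1861 CPM, and their part in the Notch1 and Notch4 values was not tested.

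In 18 mesoderm cells, Myl7, Actc1, Ttn and Tnnt2, genes of contractile heart muscle, made up at least 0.05% of UMIs. The mesodermal Jag1 UMIs lay mostly in these cells, in 4 of them, which is 22.2% of the 18 (95% exact binomial interval 6.41 to 47.6), against 2 of 181 other mesoderm cells (1.10%, 0.134 to 3.93). By tagged sample, the contractile cells numbered 6, 4 and 8 and held 4, 8 and 0 Jag1 UMIs. The contractile list of 6 genes, which includes those that chose the cells, was also uneven between the tagged samples. It stood at 6708, 9716 and 876.4 CPM, the lowest being tagged sample 3. The labels name no heart tissue, and where these cells came from was not tested. Notch3 was present in both groups, at 10.4, 4.94 and 7.55 CPM in contractile cells (5 UMIs) and at 5.98, 1.69 and 3.82 in the others (24 UMIs).

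**Figure D5:**
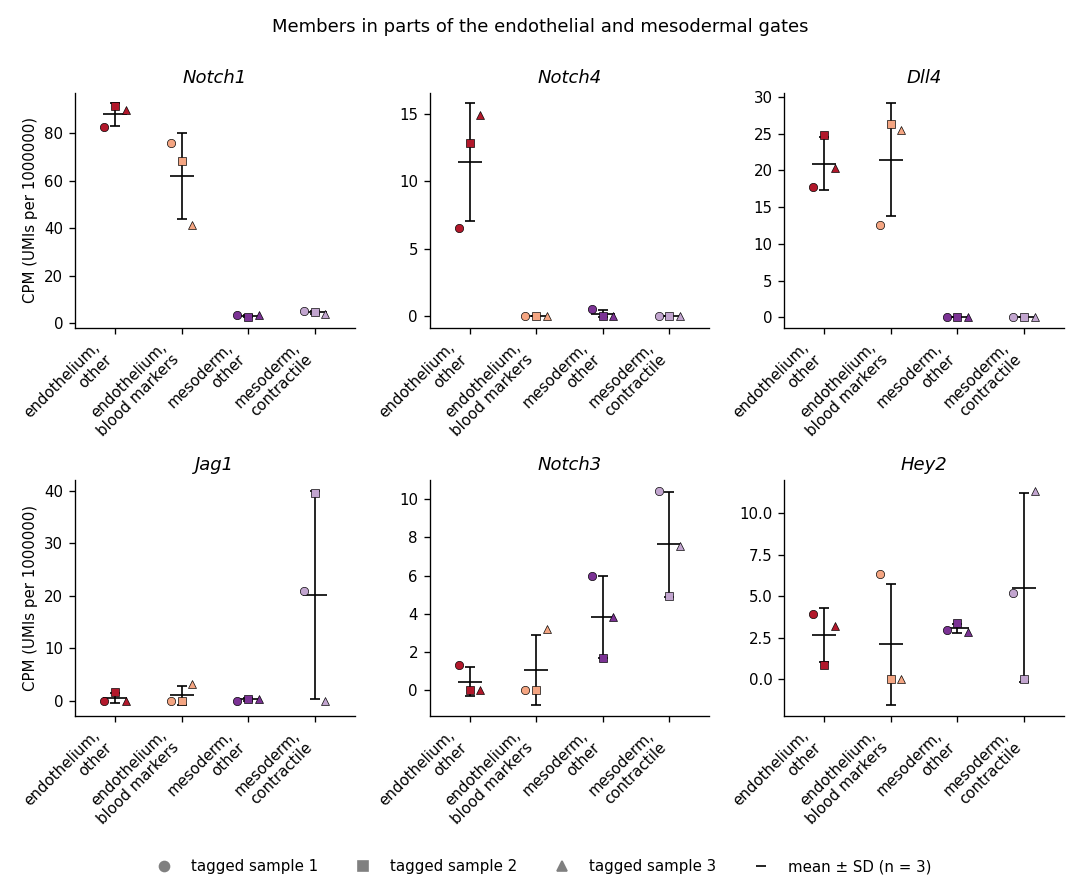
CPM (y axis, linear, with its own scale in each panel) of 6 of the genes in endothelium cells without and with blood markers (15 cells) and in mesoderm cells without and with contractile genes (18 cells), on the x axis. Points are tagged samples, and bars the mean and SD, which can reach below 0. Notch4 was at 0 in endothelium cells with blood markers (limit of 3 counts, 4.53 CPM). Of the contractile cells, only those of tagged samples 1 and 2 held Jag1.

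The genes whose levels were most like those of each of the 10 were ranked by Pearson's correlation of log2(CPM + 1) over 12 sums, 4 classes by 3 tagged samples. The sums of a class share their cell type and libraries, so the correlation is a description. Among 6697 eligible genes, the closest to Notch1 were Coro2b (r = 0.996), Eng (0.995) and Grrp1 (0.993), where Eng is the endothelial coreceptor endoglin. The closest to Dll4 were Mfng (0.996), Scarf1 (0.996) and Adgrl4 (0.996), and the 3 closest to Notch4 included Mfng (0.993) and Emcn (0.990), an endothelial sialomucin. The closest to Hey1 were Il4ra (0.984), Sh2d3c (0.981) and Arpc3 (0.979). For Notch2 they were Neo1 (0.959), Uba6 (0.956) and Usp47 (0.937), where Neo1 is the receptor neogenin. The closest gene was Kdelr2 (0.991) for Hes1, Hnrnph3 (0.952) for Notch3 and Zfp428 (0.977) for Hey2, each found in all 4 classes, and Jag1 and Jag2 had too few UMIs to be ranked.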

How the data were processed

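Per the file headers, the deposited count matrices came from Cell Ranger 6.1.2 and hold raw UMI counts, with no normalization by the authors. The submitters' processing notes name GRCm38 and mm10. For aligner settings, annotation and the assignment of cells to tags nothing was stated. The 6 tag rows were left out of all sums, and 0 barcodes were shared between matrices.

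UMIs of the cells of a class were added up within each tagged sample, and levels are UMIs per 1000000 of that sum (CPM). Classes were compared in fits of the 2 classes only, 3 sums each, with edgeR 4.0.16 on R 4.3.3 (trimmed mean of M-values, filterByExpr, quasi-likelihood test, two-sided, Benjamini-Hochberg adjustment over all genes tested, threshold 0.05). DESeq2 1.42.0 was an alternative. Doublets were not removed in the main analysis beyond cells in 2 classes; leaving out cells called by Scrublet was an alternative. Thinning and exact intervals used numpy 2.4.6 and scipy 1.17.1 on Python 3.11.15. The 10 genes, the lists and the tests were chosen with earlier results of these data known.

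Each tagged sample gave a sum to both classes of a comparison, which pairs the sums. Over 4721 genes, deviations of paired sums from their class means correlated by 0.232, 0.198 and 0.024 for endothelium and mesoderm, and by 0.014 to 0.214 in the other comparisons. Genes named besides the 10 were, per list, direction and comparison, among the 4 with the smallest p, or ligands, fringe enzymes, Rbpj, Nrarp and Heyl. The 3 genes most like each of the 10 needed a mean of 20 CPM in a class, and the gene of the 10 needed 30 UMIs. Some genes that these rules name are not reported here. The fits were tested on a single draw of simulated data, in which 200 genes were changed. The spread was fixed beforehand, not taken from these sums, and the simulated sums were not paired. Changed genes were taken only from those above a minimum mean count. The figures therefore do not cover genes with few counts, such as Jag1, Jag2, Notch3 and Hey2. Of genes changed by 1 on the log2 scale, 45.4% were recovered in the split by Dll4 and 51.7% to 77.8% between classes. Of genes changed by 2, 94.9% to 100% were recovered, and 6 to 10 unchanged genes were called per fit. These are rough figures, and many differences of 1 would be missed, above all in the split by Dll4. Precision rests on 3 sums per class and, for Jag1, Jag2, Notch3 and Hey2, on few counts. Intervals and limits of 3 counts cover counting error only.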

Additional observations from a re-analysis of the deposited data

Results flagged for a closer look

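Jag2 was found in cells that the class definitions did not take up, a signal outside the comparisons. The 188 cells of no class held 22 Jag2 UMIs (12, 9 and 1 in tagged samples 1, 2 and 3). Pooled over tagged samples this was 2.62 CPM, against 1.86 in endothelium, the highest of the 4 classes. By tagged sample the cells of no class stood at 3.18, 3.75 and 0.447 CPM, against 3.56, 0.735 and 0.80 in endothelium. These samples overlapped, and the cells of no class were the higher in tagged sample 2 only. The 22 UMIs came from 14 cells, with at most 3 in a cell. In these 14 cells a list of 8 trophoblast markers summed to 714.6 CPM, against 90.8 in the other cells of no class. Of these markers, Plac1 stood at 240.6 against 11.8 and Tfap2c at 198.4 against 37.3, and Prl3b1, Prl3d1 and Tpbpa were at 0 in all cells of no class, while the 6 parietal endoderm markers summed to 97.9 against 2216. The cells were grouped by Jag2 itself, so these values are a description with no test.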

How the results depend on the processing

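The 24 tested results of the 10 genes were recomputed in 322 alternatives, of which 317 kept direction and side of the threshold, 5 were weaker and 0 were reversed. The 5 were those of Hes1 and Notch2 given with their values above. The other 22 results held in all alternatives in which the gene passed the low-count filter. Where a gene failed that filter, the alternative gave no result and was not counted. In mesoderm against endoderm, 11 alternatives were left for Notch3 and 12 for Hey2, against 14 for Hes1 and Notch2. In endothelium against mesoderm, 13 were left for Notch4, against 15 for Notch1. With the tagged sample as a replicate block, the same numbers of the 10 genes were called in each comparison (6, 6, 5, 5 and 0), and no call on them changed. With the block, 3398 genes were called in endothelium against mesoderm, 6476 against endoderm, 6073 against erythroid cells, 6933 in mesoderm against endoderm and 0 by Dll4. Leaving out each tagged sample gave 2233 to 3346 genes called in endothelium against mesoderm, 5421 to 6297 against endoderm, 5183 to 6298 against erythroid cells, 5759 to 7023 in mesoderm against endoderm and 0 to 2 by Dll4. Of the 10 genes, this gave 5 to 6, 6 to 6, 5 to 5, 4 to 5 and 0 to 0 calls in the same order. With sums thinned to the smallest, 2 of the 10 genes passed the filter in mesoderm against endoderm and 2 were called. By Dll4, 2 genes were called without tagged sample 1, against 0.

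Rbpj in endothelium against endoderm (0.01) changed sign with no low-count filter (-0.047), all 4 classes in 1 fit (-0.0050), Scrublet calls left out (-0.012), thresholds doubled (-0.18), cells with blood markers left out (-0.026) and on leaving out single tagged samples (-0.038 to 0.056). Against erythroid cells Rbpj (-0.13) stood at 0.18 with library size scaling. Rfng in mesoderm against endoderm (-0.11) stood at 0.13 with library size scaling, 0.10 with thinned sums and 0.030 without contractile cells. None of these was called, and the cause was not tested. Scaling by library size moved the median of all genes by -0.12 in endothelium against mesoderm, 0.13 against endoderm, 0.32 against erythroid cells and 0.24 in mesoderm against endoderm. The share of higher calls then went from 55.1% to 42.0% in endothelium against mesoderm, from 51.7% to 69.6% against erythroid cells and from 48.0% to 62.4% in mesoderm against endoderm. With library size scaling, no gene of the 10 changed direction.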
